A study of Mus musculus with 39 samples.

Results

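The 10 genes described here encode acute phase proteins, plasma proteins that the liver makes: serum amyloid A (Saa1, Saa2, Saa4), the orosomucoids (Orm1, Orm2), haptoglobin (Hp), hemopexin (Hpx), lipocalin 2 (Lcn2), the fibrinogen beta chain (Fgb) and C-reactive protein (Crp). They were chosen by name, with earlier results of these data known. All 10 were found among the 11873 genes of the deposited count table. All 10 also passed the filter on low counts that left 9483 genes to test. The libraries were RNA-seq of snap-frozen liver from C57BL/6 mice aged 3 to 5 months. All groups carried Alb-Cre, a recombinase driven by the albumin promoter, which is active in hepatocytes, so that other liver cells keep an intact floxed gene. Alb mice carried Alb-Cre alone, HLKO mice were Alb-Cre+ Hif1afl/fl and lose the oxygen-sensing transcription factor HIF-1α in hepatocytes, and BLKO mice were Alb-Cre+ Bmal1fl/fl and lose the clock transcription factor BMAL1 (gene symbol Arntl) there. Mice were kept in a light-dark cycle with food ad libitum, the lights stayed off on the day of the experiment, and each mouse then spent 4 h in 21% or 6% oxygen, starting at circadian time CT4 (rest phase) or CT16 (active phase). The 3 genotypes, 2 times and 2 oxygen levels gave 12 groups of 3 libraries, A, B and C. The design asks how oxygen, clock time and each deleted factor change the liver's RNA, and the values below ask it of the acute phase genes.

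In the acute phase response, cytokines such as interleukin-6 and interleukin-1 act on hepatocytes, STAT3, NF-κB and C/EBP transcription factors bind the promoters of these genes, and glucocorticoids often add to the effect. In mice Saa1 and Saa2 are the strongly inducible members and travel on high-density lipoprotein, Saa4 is the constitutive form, and Crp, the classical marker in humans, is only a minor acute phase protein. Hp binds free hemoglobin and Hpx binds free heme, so both limit loss of iron and oxidative damage. Lcn2 binds bacterial siderophores and withholds iron, Orm1 and Orm2 carry basic and neutral ligands in plasma, and Fgb forms fibrinogen with the alpha and gamma chains.

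Promoter sequence is shown for 5 members, because Saa1, Saa2 and Lcn2 rose and fell together through the 36 libraries, while Crp did not follow them and Fgb did so less closely. The windows run from 250 to 61 bases before the annotated start, from RefSeq on GRCm38.p6, written 5′ to 3′ on the gene's strand. Capitals mark matches to the C/EBP letters TTGCNNAA, the NF-κB letters (GG, 2 free bases, TTT, 1 free base and CC) and the STAT letters TTCNNNGAA, each searched on both strands. A match to such letters is a description and does not show binding.
Saa1 (chr7:46743041-46743230, minus strand): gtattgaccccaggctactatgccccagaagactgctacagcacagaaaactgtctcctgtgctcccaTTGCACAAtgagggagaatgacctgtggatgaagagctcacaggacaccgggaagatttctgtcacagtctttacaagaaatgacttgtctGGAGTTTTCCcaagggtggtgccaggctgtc
Saa2 (chr7:46751583-46751772, plus strand): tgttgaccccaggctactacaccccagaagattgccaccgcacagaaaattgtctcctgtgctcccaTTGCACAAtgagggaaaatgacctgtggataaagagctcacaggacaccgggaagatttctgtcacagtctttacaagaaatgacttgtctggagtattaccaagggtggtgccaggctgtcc
Lcn2 (chr2:32387800-32387989, minus strand): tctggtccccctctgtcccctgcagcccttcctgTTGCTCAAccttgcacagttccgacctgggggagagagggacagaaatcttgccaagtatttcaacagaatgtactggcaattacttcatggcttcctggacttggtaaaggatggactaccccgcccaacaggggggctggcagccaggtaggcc
Fgb (chr3:83049924-83050113, minus strand): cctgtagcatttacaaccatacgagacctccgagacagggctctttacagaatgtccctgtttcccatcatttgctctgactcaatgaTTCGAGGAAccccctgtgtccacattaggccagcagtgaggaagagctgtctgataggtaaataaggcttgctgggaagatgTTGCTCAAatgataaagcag
Crp (chr1:172697806-172697995, plus strand): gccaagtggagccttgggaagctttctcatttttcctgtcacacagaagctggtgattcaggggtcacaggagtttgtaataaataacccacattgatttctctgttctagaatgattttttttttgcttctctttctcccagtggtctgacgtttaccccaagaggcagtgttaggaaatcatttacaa

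The promoter table held 8 of the 10 members. The C/EBP letters were found in 7 of the 8 windows (Saa1, Saa2, Saa4, Orm2, Hpx, Lcn2 and Fgb), against 7.81% of 27025 promoter windows of the same length. The NF-κB letters were found in 1 of 8 (Saa1; 3.05% of all windows) and the STAT letters in 1 of 8 (Fgb; 5.64%). The REV-ERB and ROR site AGGTCA, a site for clock-linked nuclear receptors, was in 4 of 8 (Saa1, Saa2, Saa4 and Hpx; 10.6% of all windows), and these windows do not mark it in capitals. In none of the 8 windows were the E-box CACGTG, to which BMAL1 binds with CLOCK, the HIF core ACGTG or the glucocorticoid receptor letters (G, 1 free base, ACA, 3 free bases, TGT, 1 free base and C) found; 4.06%, 12.2% and 0.303% of all windows hold them. The Saa1 and Saa2 windows were 93.2% identical, against 45.2% for Saa1 and Saa4. Saa4 (chr7:46727998-46732603), Saa1 (chr7:46740497-46742980) and Saa2 (chr7:46751790-46754313) lie in that order in GRCm38. Orm1 (chr4:63344560-63348163) and Orm2 (chr4:63362449-63365878) lie on either side of Orm3 (chr4:63356162-63359511).

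Total counts were 1717589 to 5196957 per library. Separate animals are not named for the 3 libraries of a group, so p-values measure the spread between libraries. The fit over all 12 groups pools that spread for each gene, so the p-value of a comparison also reflects libraries outside it. Over genes outside the lists used here, 3 libraries stood farthest apart from the others of their group: Alb CT4 21% A, Alb CT16 6% A and BLKO CT16 21% A. Their counts differed from the other libraries of the group by a chi-square of 8.75 to 13.9 per degree of freedom, against 3.26 to 5.36 between those other libraries. BLKO CT4 6% C (8.38 and 6.87, against 3.37) and HLKO CT16 21% C (6.38 and 6.45, against 3.81) also differed from their groups, at lower values. The chi-square is not adjusted for depth, and Alb CT16 6% A and BLKO CT16 21% A had the largest total counts (5010213 and 5196957). Counts over the whole Hif1a and Arntl genes do not check the deletions, since reads from exons outside the deleted part still count. The clock output gene Dbp, a target of BMAL1, stood at 11.1 ± 1.56 CPM (SD, n = 3) in the BLKO group exposed to 21% at CT4, where Alb had 179 ± 24.3 CPM. Counts may be uncertain where near-identical copies share reads: 51 of 560 windows of 50 bases (9.11%) in the Saa1 transcript also occur in Saa2, and 148 of 726 (20.4%) in Orm1 also occur in Orm2.

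Ranked by the median over all 36 libraries per kilobase of exon, Hpx was highest (3770 CPM per kb) and Hp next (3297), followed by Fgb (1844), Orm1 (1719), Saa1 (389), Crp (217), Saa2 (177), Saa4 (113), Orm2 (18.5) and Lcn2 (11.0). Saa1 reached 18044 CPM per kb in its highest library. In CPM, Saa2 ranged 632-fold from its lowest to its highest library, Saa1 222-fold, Lcn2 198-fold and Orm2 86.8-fold. The ranges of the others were 8.68-fold for Saa4, 7.79-fold for Orm1, 4.24-fold for Hp, 3.34-fold for Crp, 3.21-fold for Hpx and 2.73-fold for Fgb. So Hpx, Hp, Fgb and Orm1, the highest by median, ranged 7.79-fold or less. Saa1 and Saa2 ranged most widely at medians above that of Saa4, and Lcn2 and Orm2 ranged widely at the lowest medians.

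Much of that range lay inside the groups. The SD of log2 CPM within groups was 2.20 for Saa2, 1.77 for Saa1, 1.57 for Lcn2 and 1.37 for Orm2, ranks 3, 4, 5 and 9 of the 9483 tested genes, whose median was 0.30. Hp, Saa4, Orm1 and Hpx ranked 1228, 1348, 1508 and 2896. Crp and Fgb ranked 5636 and 5762, near the middle of all genes.

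**Figure D1:**
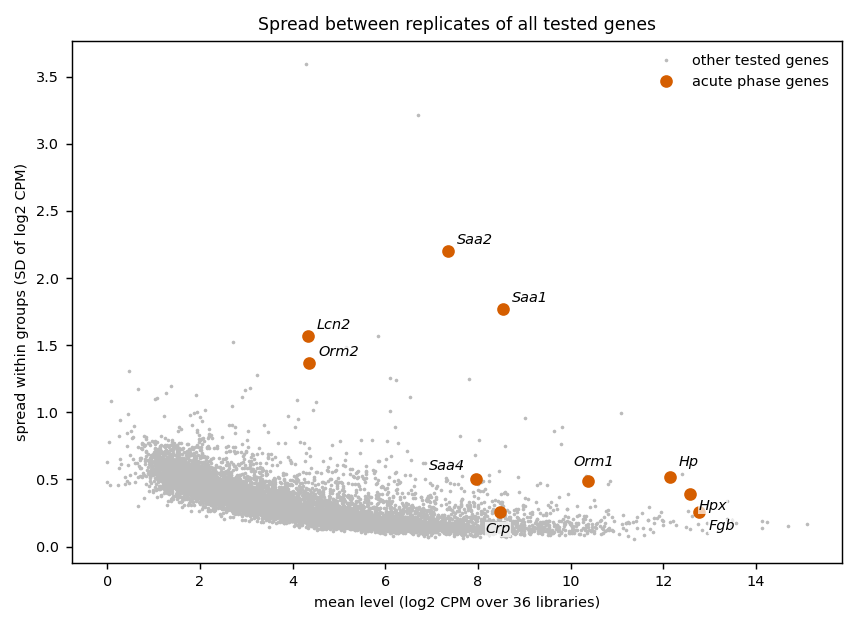
Spread of every tested gene within groups (SD of log2 CPM over libraries of the same group) against its mean level, with the 10 acute phase genes named. Saa2, Saa1, Lcn2 and Orm2 lie near the top of the 9483 genes (ranks 3, 4, 5 and 9), while Fgb and Crp have SDs near the median of all genes.

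Saa1 showed the pattern most plainly. In Alb liver at CT4, Saa1 stood at 9218, 178 and 323 CPM in libraries A, B and C at 21% oxygen and at 9999, 709.9 and 467 CPM at 6%. At CT16 the Alb values were 1354, 221 and 162 CPM at 21% and 637, 10989 and 8218 CPM at 6%. Library A was far above the others in both CT4 groups, and libraries B and C were far above A in the CT16 group at 6%.
HLKO liver gave 416, 395 and 287 CPM at CT4 and 21%, 99.6, 85.9 and 143 at CT4 and 6%, 175, 146 and 187 at CT16 and 21% and 520.4, 155 and 139 at CT16 and 6%. In BLKO liver the values were 2619.7, 2030.2 and 252 CPM at CT4 and 21%, 49.6, 67.7 and 70.6 at CT4 and 6%, 816, 115 and 50.5 at CT16 and 21% and 147, 1326 and 58.4 at CT16 and 6%. No HLKO or BLKO library reached the level of the 4 highest Alb libraries, and the 3 lowest group means were those of BLKO and HLKO at CT4 and 6% and of HLKO at CT16 and 21%.

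Saa2 repeated these values almost library by library. It stood at 6811, 71.0 and 147 CPM in Alb libraries A, B and C at CT4 and 21%, at 7185, 202 and 129 at CT4 and 6%, and at 129, 9945 and 7479 at CT16 and 6%. Its HLKO values ran from 32.7 to 165 CPM and its BLKO values from 15.7 to 1799.6 CPM. Saa4, the constitutive form, moved much less: 153 to 779 CPM in Alb, 201 to 442 in HLKO and 89.8 to 340.1 in BLKO. The lowest Saa4 values were those of BLKO at CT4 and 6% (104, 107 and 89.8 CPM), below every other group.

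**Figure D2:**
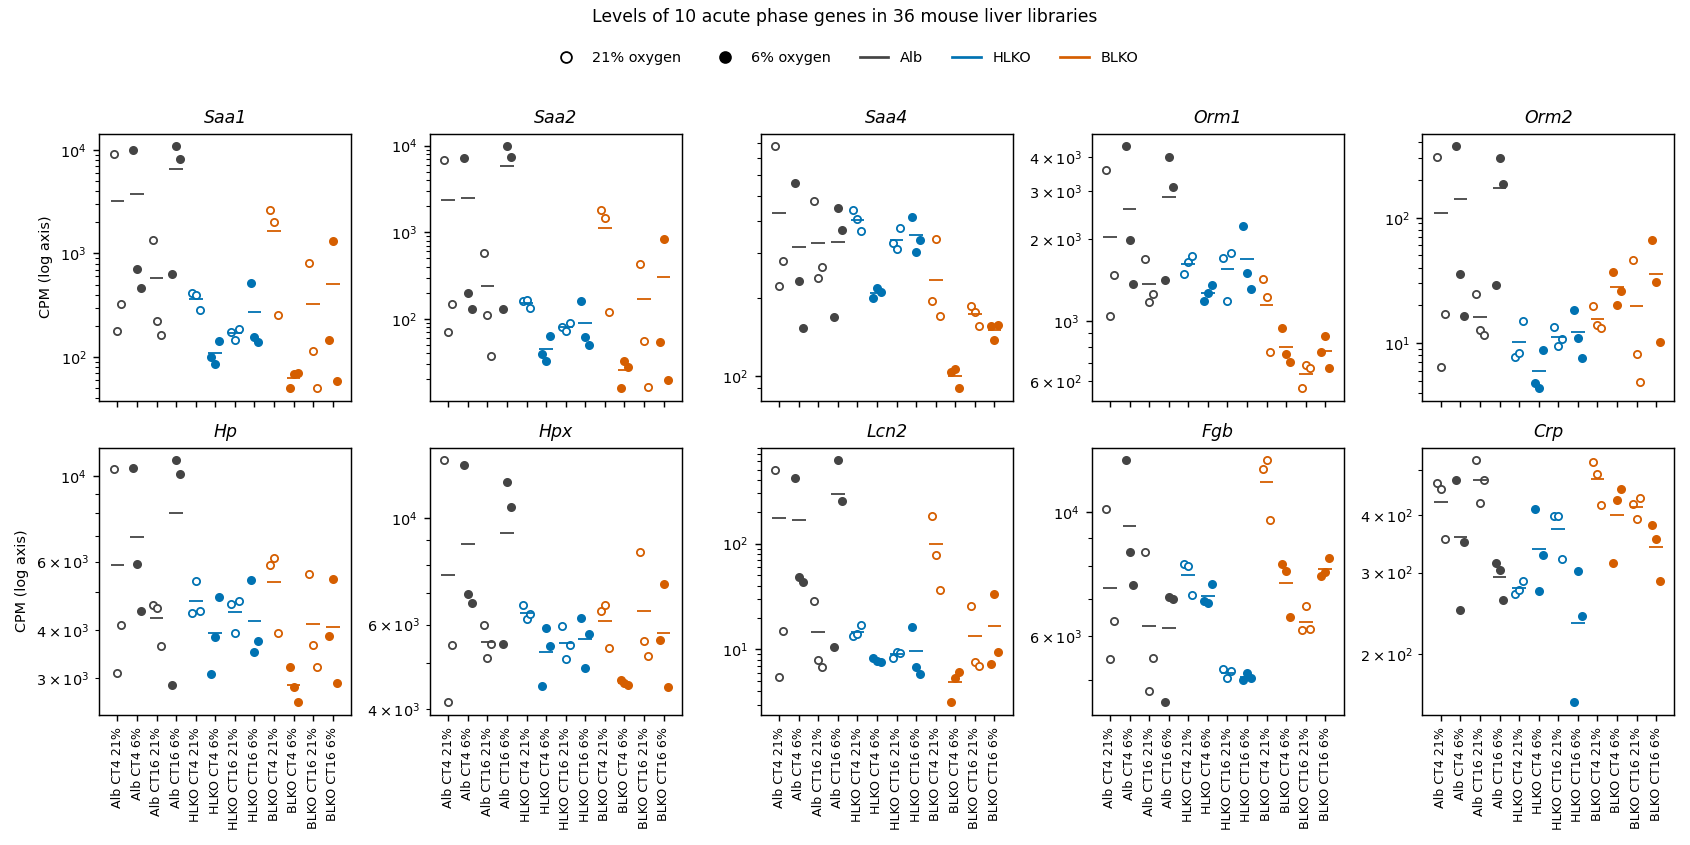
Level of each acute phase gene (CPM, log axis) in each of the 36 libraries by group, with open circles at 21% oxygen, filled circles at 6%, a line at the group mean and a colour for each genotype. In Alb, Saa1, Saa2, Lcn2 and Orm2 show single libraries far above the others of their group at CT4, where the highest Saa1 values are 9218 CPM at 21% and 9999 CPM at 6%.

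Lcn2 followed Saa1 at a much lower level. It stood at 501, 5.48 and 14.9 CPM in Alb libraries A, B and C at CT4 and 21%, 416, 47.9 and 43.4 at CT4 and 6%, 28.9, 7.86 and 6.84 at CT16 and 21% and 10.6, 622 and 255 at CT16 and 6%. HLKO libraries held 5.89 to 16.8 CPM in all 4 groups. BLKO gave 182, 78.5 and 36.1 CPM at CT4 and 21% but 3.15, 5.38 and 6.09 at CT4 and 6%, with 26.0, 7.53 and 6.93 at CT16 and 21% and 7.31, 33.5 and 9.48 at CT16 and 6%. The same Alb libraries were high as for Saa1, and the HLKO values covered a range narrower than those of Alb or BLKO.

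Orm2 stood at 304, 6.40 and 17.1 CPM in Alb at CT4 and 21%, 375, 35.4 and 16.3 at CT4 and 6%, 24.4, 12.7 and 11.6 at CT16 and 21% and 29.1, 300.1 and 186 at CT16 and 6%. Elsewhere it ran from 4.32 to 18.3 CPM in HLKO and from 4.91 to 66.0 CPM in BLKO. At CT16 all 3 Alb libraries at 6% lay above all 3 at 21%, although library A did so narrowly.
Orm1 was far more abundant, at 3597, 1040.5 and 1471 CPM in Alb at CT4 and 21%, 4397, 1986 and 1365 at CT4 and 6%, 1686, 1176 and 1252 at CT16 and 21% and 1411, 4015 and 3104 at CT16 and 6%. HLKO libraries held 1180.1 to 2235 CPM. In BLKO, Orm1 stood at 1429, 1229 and 771 CPM at CT4 and 21%, 940.0, 759 and 708 at CT4 and 6%, 565, 689 and 669 at CT16 and 21% and 767, 877 and 672 at CT16 and 6%. At both times at 6% oxygen every BLKO library lay below every Alb library.

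Hp and Hpx, the hemoglobin and heme scavengers, showed the same libraries high with smaller amplitudes. Hp stood at 10388, 3093 and 4115 CPM in Alb at CT4 and 21%, 10458, 5933 and 4459 at CT4 and 6%, 4645, 4563 and 3634 at CT16 and 21% and 2883, 11005 and 10140.1 at CT16 and 6%. Its range was 3067 to 5369 CPM in HLKO and 2594 to 6147 CPM in BLKO. Hpx ranged from 4129 to 13249.9 CPM in Alb, 4468 to 6591 in HLKO and 4454 to 8512 in BLKO, so that for both genes the ranges of the 3 genotypes overlapped and the upper ends were Alb libraries.

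The highest Fgb values came from BLKO as well as Alb. Fgb stood at 11956, 12413 and 9681 CPM in BLKO at CT4 and 21%, 8090.3, 7836 and 6487 at CT4 and 6%, 6142, 6776 and 6165 at CT16 and 21% and 7683, 7798 and 8284 at CT16 and 6%. HLKO values were 8061, 8022 and 7103 CPM at CT4 and 21% and 5231, 5037 and 5185 at CT16 and 21%, with 6925, 6862 and 7434 at CT4 and 6% and 5000.2, 5154 and 5032 at CT16 and 6%. Alb values were 10130.2, 5444 and 6387 CPM at CT4 and 21%, 12431, 8489 and 7419 at CT4 and 6%, 8497, 4775 and 5476 at CT16 and 21% and 4555, 7054 and 6996 at CT16 and 6%. In HLKO all CT4 libraries lay above all CT16 libraries at both oxygen levels. In BLKO this held at 21% only, and in Alb at 6% only.

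Crp had a small range, and of the 4 libraries highest in Saa1 only Alb CT4 6% A was among the 4 highest for Crp. Crp stood at 468, 454 and 354 CPM in Alb at CT4 and 21%, 475, 249.8 and 349 at CT4 and 6%, 526, 424 and 475 at CT16 and 21% and 314, 304 and 262 at CT16 and 6%. HLKO gave 269.6, 275 and 288 CPM at CT4 and 21%, 411, 273 and 328 at CT4 and 6%, 397, 398 and 321 at CT16 and 21% and 158, 302 and 242 at CT16 and 6%. BLKO values ran from 288 to 520.3 CPM. In each of the 3 genotypes the 3 libraries at CT16 and 6% lay below the 3 at CT16 and 21%. In BLKO these stood at 381, 355 and 288 CPM at 6% beside 423, 392 and 435 at 21%.

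Counted over the members, 4 libraries carried the high values. Alb CT4 6% A was among the 4 highest of the 36 libraries for 10 of the 10 genes, Alb CT4 21% A for 9, Alb CT16 6% B for 8 and Alb CT16 6% C for 7. For Crp the place of Alb CT4 6% A was narrow, at 475.23 CPM beside 475.21 in Alb CT16 21% C. The 4 libraries belong to 3 groups, 1 of them at 21% oxygen, and in each group at least 1 library lacked the high values. Alb CT4 21% A is also a library that stood apart over other genes. In the CT16 group at 6% it was the low library, A, that stood apart. The heat map of the members shows these 4 columns.

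**Figure D3:**
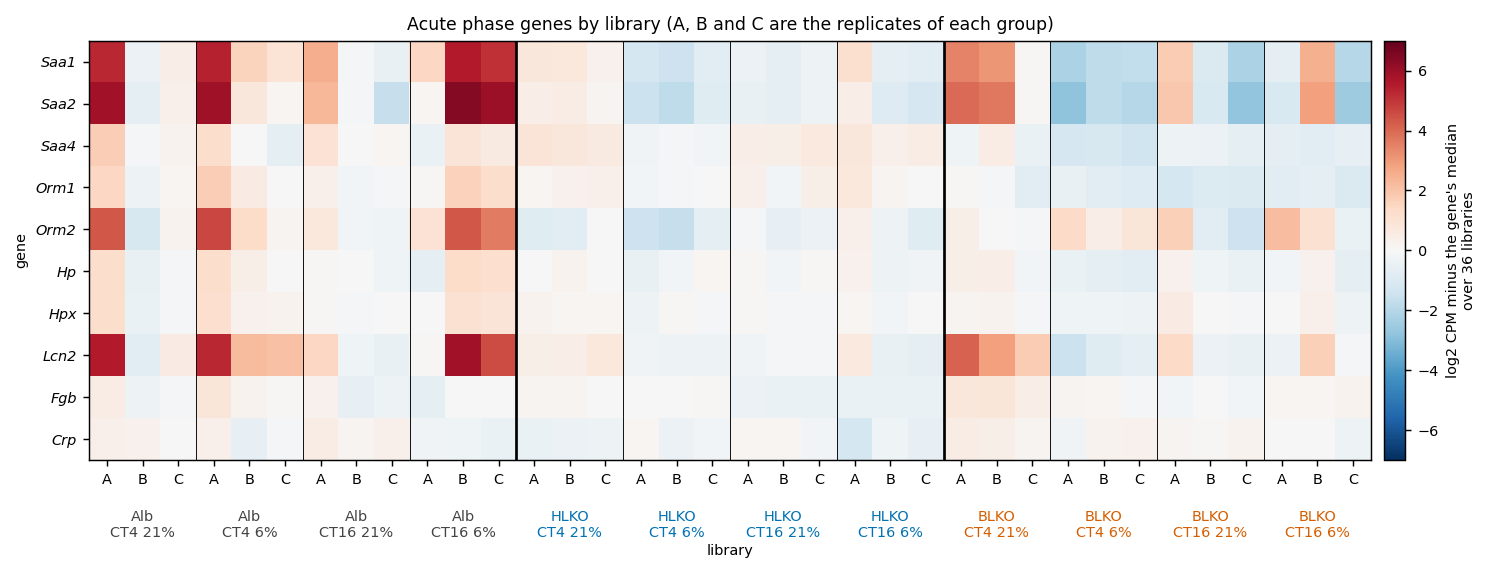
Deviation of log2 CPM from the median of each gene over the 36 libraries, with libraries in columns by group and the 10 genes in rows. The columns of Alb CT4 21% A, Alb CT4 6% A and Alb CT16 6% B and C are high over most rows; in the Crp row, Alb CT16 6% B and C lie below the median.

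Across the 36 libraries, as a description with no p because the libraries of a group share their condition and a few high libraries weigh heavily, Saa1 and Saa2 had a Pearson r of log2 CPM of 0.99 (Spearman rho 0.98). Saa1 had r = 0.94 with Lcn2 (rho 0.88), 0.91 with Hp (0.82) and 0.89 with Hpx (0.82). With Fgb r was 0.45 (rho 0.31) and with Crp 0.081 (0.090). Saa1, Saa2, Lcn2, Hp and Hpx had r of 0.89 or more with each other, while no r with Crp exceeded 0.33. For deviations from the group means, which leave out differences between conditions, r was 0.99 for Saa1 and Saa2, 0.92 for Saa1 and Lcn2 and 0.75 for Saa1 and Fgb. Saa4 and Fgb had r = 0.086 over libraries (rho 0.038) but 0.92 for the deviations, so that they moved together among libraries of a group while their group means did not.

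**Figure D4:**
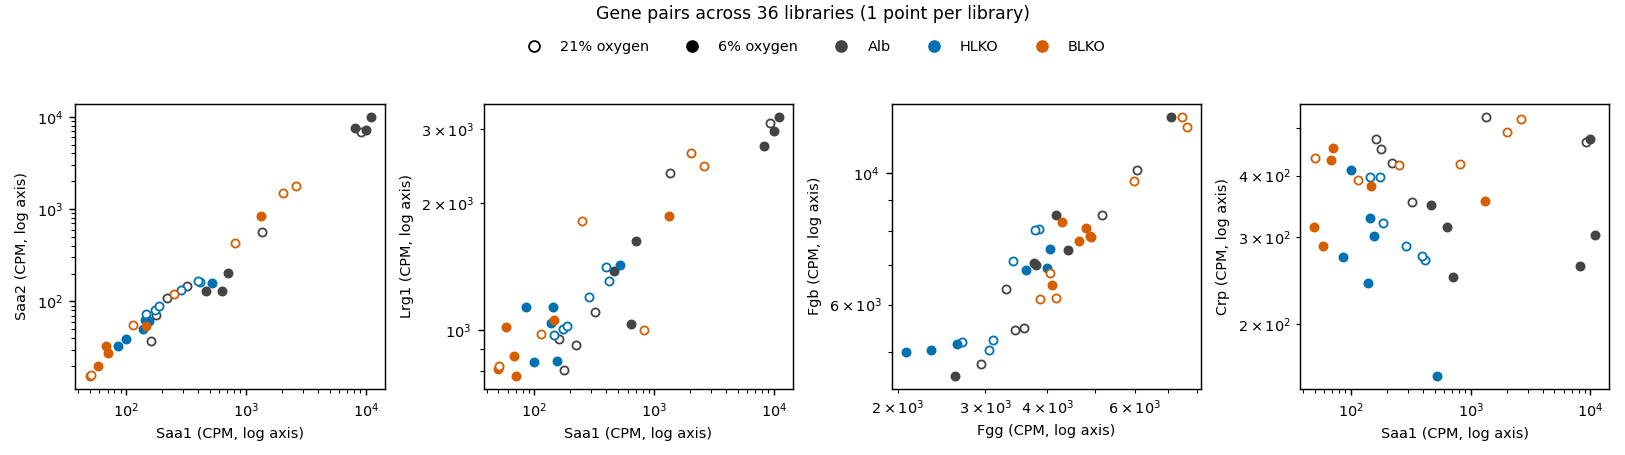
Level in CPM (log axes) of 4 pairs of genes, Saa1 with Saa2, Saa1 with Lrg1, Fgg with Fgb and Saa1 with Crp, with 1 point for each of the 36 libraries, a colour for each genotype, open points at 21% oxygen and filled points at 6%. Saa2 rises with Saa1 through the libraries (r = 0.99), with 4 Alb libraries at the upper right, and Crp shows no such line with Saa1 (r = 0.081).

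Among the other tested genes, the 3 most like each member were taken by r over the 36 libraries. Lrg1, a secreted leucine-rich glycoprotein, was among the 3 most like genes for 4 members (r = 0.92 with Saa1, 0.92 with Saa2, 0.93 with Lcn2, 0.87 with Hp). Without the 2 libraries farthest from the median, r was 0.89, 0.90, 0.92 and 0.82. Fgl1, a fibrinogen-like protein of the liver, and Ang, a ribonuclease, were also among the 3 for 4 members each. Saa3, a form also made outside the liver, was among them for Saa2 (0.82) and Hpx (0.88). The serine protease inhibitor chain Itih4 was most like Hp (0.91) and Orm1 (0.86), and complement C2 most like Saa4 (0.89). Fgg, the fibrinogen gamma chain, was most like Fgb (0.93, and 0.91 without the 2 farthest libraries). Prtn3 was among the 3 for Saa1 (0.85). It ran from 0 to 40.2 CPM, highest in Alb CT4 21% A, and was not among the cell type markers used below. The others were Pdia5 (0.87) and Cfb (0.87) for Saa4 and Ambp (0.85) and Prg4 (0.85) for Orm1. Rnase4 (0.79) and Tmem176a (0.75) were among those for Orm2, and Atp11a (0.80) and Serpinf2 (0.80) for Fgb. For Crp the 3 were Mmd (0.87), the glycerol kinase Gk (0.85) and the kynurenine hydroxylase Kmo (0.85). As with the genes most like Saa4 and Fgb, none of these was among the 3 for another member.

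Each comparison was tested with edgeR's quasi-likelihood test over all 9483 genes, with Benjamini-Hochberg adjustment within the comparison and a call at an adjusted p under 0.05. Fold changes are log2 values ± SE. Comparisons of Alb with HLKO and BLKO and of 6% with 21% oxygen share groups, so their values are set side by side and not counted as separate evidence. Over 29 comparisons, 29 of 290 tests of members were called, 4 higher and 25 lower, where 5.58% of the tests of all genes were, 2.76% higher and 2.82% lower. Between genotypes 20 of 80 were called, 1 higher and 19 lower, against 6.74% of all genes, 3.74% lower. Between oxygen levels 6 of 60 were, close to the 10.1% of all genes, and between times 2 of 60, against 5.48%. A difference of the hypoxia effect between times was called in 1 of 30, against 3.23%. These shares are a description, since the members were chosen with earlier results of these data known. Saa1, Saa2, Lcn2, Hp and Hpx moved together, so their calls are not separate evidence. In bulk liver, fewer cells of a type and less RNA per cell cannot be told apart.

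**Figure D5:**
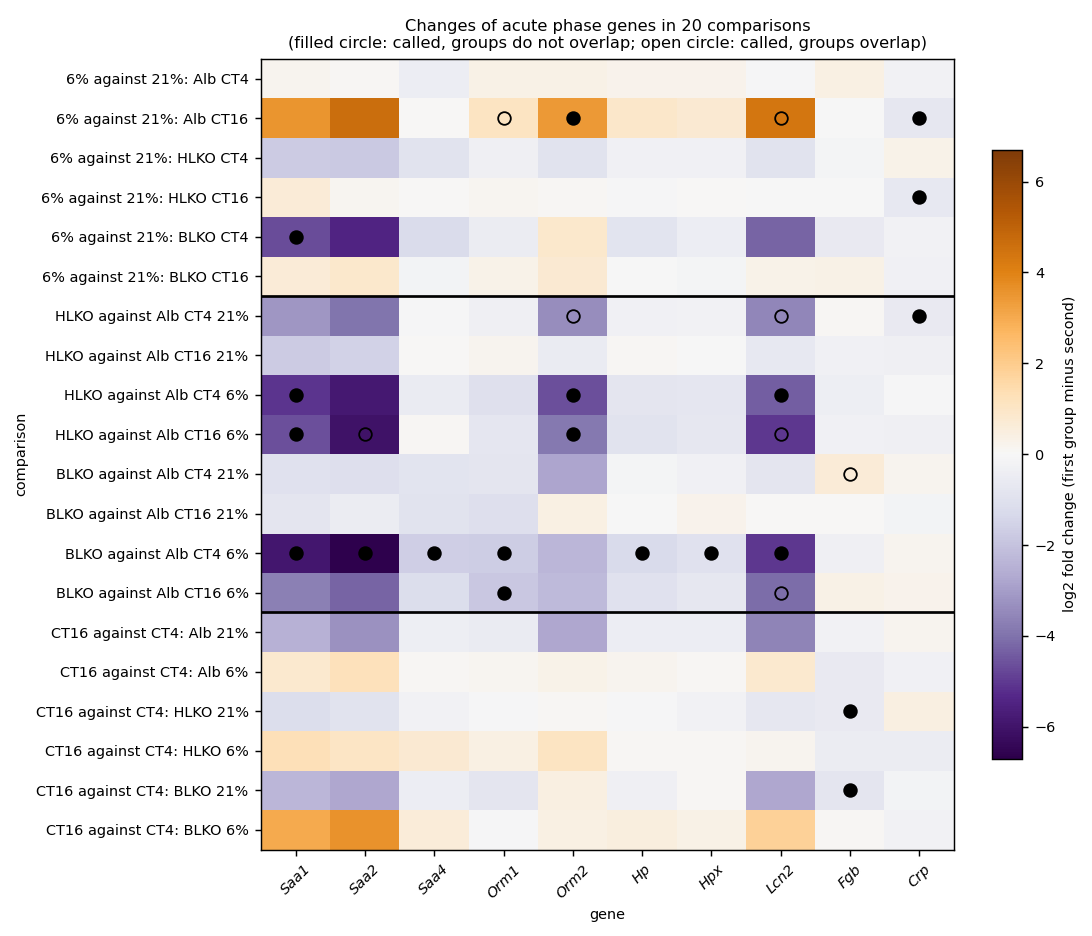
Colour map of the log2 fold change (first group minus second) of the 10 genes, in columns, in the 20 comparisons between pairs of groups, in rows. A filled circle marks a called gene whose groups do not overlap and an open circle a called gene whose groups overlap. Hypoxia in Alb at CT16 holds 3 of the 4 higher calls, and most of the lower calls are in HLKO and BLKO against Alb at 6% oxygen.

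In Alb liver at CT16, 3 members rose with hypoxia and 1 fell. Lcn2 rose (log2 fold change 4.38 ± 1.16, adjusted p = 0.00948), as did Orm2 (3.41 ± 1.02, adjusted p = 0.0224) and Orm1 (1.05 ± 0.36, adjusted p = 0.0449). Crp fell by 0.69 ± 0.19 (adjusted p = 0.0139), opposite to the other 3. That made 4 of 10 members called, where 13.5% of all genes were, 6.72% higher and 6.76% lower. The median over the 10 members was 0.98, against 0.01 over all genes. Saa2 (4.62 ± 1.60, adjusted p = 0.0506) and Saa1 (3.52 ± 1.30, adjusted p = 0.0674) missed the threshold. The groups overlapped for Lcn2 and Orm1, since Alb CT16 6% A was as low as the 21% libraries, and did not for Orm2 and Crp. Without Alb CT16 6% A, 8 members were called, Saa1 and Saa2 among them. Without Alb CT16 6% B 1 was, and without Alb CT16 21% C also 1. The single neutrophil marker that passed the filter, S100a9, was called higher here too, and its part in these values was not tested.

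In Alb at CT4 no member was called with hypoxia by edgeR, none had an unadjusted p under 0.05, and DESeq2 also called 0; 9.16% of all genes were called. The median of the members was 0.21 against 0.01. Lcn2 stood at 174 ± 284 CPM (SD, n = 3) at 21% and 169 ± 214 at 6%, with 1 high library in each group. Without Alb CT4 21% A, the library that stood apart, the log2 fold change of Lcn2 was 4.00 (adjusted p = 0.0215) where with it the value was -0.06 ± 0.95. Then Orm2, Hpx and Fgb were called higher as well, with log2 fold changes of 3.54, 0.87 and 0.66. Without Alb CT4 6% A, the high library at 6%, Lcn2 was at -1.93 (adjusted p = 0.304). Orm2, Hpx and Fgb were then at -2.12, -0.16 and 0.12, and none of them was called. The size and direction of the Lcn2 change at CT4 thus depended on 1 high library in each group. The test of whether the hypoxia effect differed between CT16 and CT4 in Alb called 0 of 10 members by edgeR and by DESeq2 (3 with an unadjusted p under 0.05; 0.232% of all genes called).

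In HLKO liver no member was called higher with hypoxia. At CT4 edgeR's fit over all 12 groups called none, where 14.4% of all genes were called. In it 1 member had an unadjusted p under 0.05. DESeq2 also called none, while a fit on the compared groups only did call members, as given below under processing. For 6 of 10 members the values at 6% and 21% did not overlap, against 34% of all genes. The median of the members was -0.62 against 0.03. Saa1 stood at 366 ± 69.5 CPM at 21% and 109.6 ± 30.0 CPM at 6% (-1.75 ± 1.24, adjusted p = 0.362), every library at 6% below every library at 21%. The SE was close to the 1.18 of Alb at CT4, where Saa1 had SDs of 5178 CPM at 21% and 5434 CPM at 6%. At CT16 Crp alone was called, falling by 0.66 ± 0.19 (adjusted p = 0.0267; 1 of 10 members; 9.74% of all genes called, 4.34% lower). Its hypoxia effect differed between times in HLKO, by -0.95 ± 0.27 (CT16 minus CT4; adjusted p = 0.0276; 8.64% of all genes called, 4.83% with a lower value), since at CT4 the change was 0.28 ± 0.19. Leaving out either HLKO CT4 21% A or B, or CT4 6% A, CT16 21% A or B, or CT16 6% A, ended that call, with adjusted p up to 0.104. The difference between the HLKO and Alb effects was called for 0 of 10 members at CT4 (0 with an unadjusted p under 0.05; 1.58% of all genes called) and at CT16 (2; 0.875%), and by DESeq2 for 0.

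With hypoxia in BLKO liver at CT4, Saa1 fell by 4.70 ± 1.40 (adjusted p = 0.0452), from 1634 ± 1233 CPM at 21% to 62.6 ± 11.4 CPM at 6%. It was the 1 member called, where 4.63% of all genes were, 2.06% lower. Saa2 (-5.46 ± 1.72, adjusted p = 0.0628), Lcn2 (-4.29 ± 1.35, adjusted p = 0.0616), Saa4 (-1.23 ± 0.38, adjusted p = 0.0581) and Fgb (-0.60 ± 0.19, adjusted p = 0.0672) missed the threshold. For 8 of 10 members the values at 6% and 21% did not overlap, against 22.9% of all genes. Of these 8, Orm2 was higher at 6% and the other 7 were lower. The call on Saa1 was lost without BLKO CT4 21% A or B (the high libraries) or without any 1 of the 3 libraries at 6%. At CT16, 0 members were called by edgeR or DESeq2 in BLKO, 0 had an unadjusted p under 0.05, and 9.4% of all genes were called. The difference between times was called for 0 of 10 in BLKO (4 with an unadjusted p under 0.05; DESeq2 0; 0.833% of all genes). The difference from the Alb effect was called for 0 of 10 at CT4 (5; DESeq2 0; 0.19%) and at CT16 (2; DESeq2 0; 0.116%). Without Alb CT4 21% A, 4 members were called in the difference at CT4.

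At 6% oxygen, BLKO liver held less RNA of many acute phase genes than Alb liver. Since no difference of the hypoxia effect between BLKO and Alb was called for a member, the lower values are not shown to be particular to 6%. At CT4, 7 of 10 members were called lower, against 5% of all genes called and 2.82% called lower. Orm1 (-1.69 ± 0.36, adjusted p = 0.00357) and Saa4 (-1.64 ± 0.38, adjusted p = 0.00749) had the lowest adjusted p. The widest differences were those of Saa2 (-6.60 ± 1.80, adjusted p = 0.0253), Saa1 (-5.89 ± 1.47, adjusted p = 0.0140) and Lcn2 (-5.05 ± 1.34, adjusted p = 0.0211), and the scavengers Hp (-1.27 ± 0.37, adjusted p = 0.0385) and Hpx (-0.96 ± 0.29, adjusted p = 0.0459) were lower too. For each of the 7 no BLKO library reached the lowest Alb library, against 19.9% of all genes not overlapping, and the median over the 10 was -1.67 against -0.00409. Without Alb CT4 6% A none of the 7 was called, with Orm1 at an adjusted p of 0.0886 and Saa4 at 0.17. Without any 1 of the BLKO libraries 2 were.
At CT16, Orm1 was lower (-1.88 ± 0.36, adjusted p = 5.41e-04), with 772 ± 102 CPM (SD, n = 3) in BLKO where Alb had 2843 ± 1322. Lcn2 was lower too (-4.09 ± 1.11, adjusted p = 0.0140). Those were the 2 of 10 members called, against 9.45% of all genes, 5.55% lower. The difference in Orm1 was the one call of the 29 that held in each fit that left out a library (adjusted p 7.48e-05 to 0.00674) and in each other setting tried (3.37e-06 to 0.00336). Without Alb CT16 6% A 7 members were called, and without BLKO CT16 6% B 4 were; Alb CT16 6% B, BLKO CT16 6% A and BLKO CT16 6% C each left 1.

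Saa1, Orm2 and Lcn2 were lower in HLKO than in Alb liver at 6% oxygen at both times. At CT4 and 6%, Saa1 (-5.09 ± 1.41, adjusted p = 0.0366), Orm2 (-4.62 ± 1.15, adjusted p = 0.0172) and Lcn2 (-4.37 ± 1.21, adjusted p = 0.0361) were lower, 3 of 10 members against 3.5% of all genes, 1.83% lower. At CT16 and 6%, Saa2 (-6.04 ± 1.73, adjusted p = 0.0236), Lcn2 (-5.03 ± 1.27, adjusted p = 0.0123), Saa1 (-4.62 ± 1.38, adjusted p = 0.0293) and Orm2 (-3.86 ± 1.10, adjusted p = 0.0237) were, 4 of 10 against 9.88% of all genes, 5.7% lower. The medians over the members were -0.93 and -0.84, and over all genes 0.01 in both. The CT4 calls were all lost without Alb CT4 6% A, or without any 1 HLKO library. Without Alb CT16 6% A the CT16 count was 6; without Alb CT16 6% B, HLKO CT16 6% A or HLKO CT16 6% B it was 1, and without HLKO CT16 6% C it was 0.

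At CT4 and 21%, Lcn2 (-3.54 ± 1.15, adjusted p = 0.0466), Orm2 (-3.37 ± 1.09, adjusted p = 0.0458) and Crp (-0.62 ± 0.19, adjusted p = 0.0404) were lower in HLKO, 3 of 10 against 9.71% of all genes, 5.61% lower. The Lcn2 and Orm2 groups overlapped and the calls rested on Alb CT4 21% A: without it the log2 fold changes were 0.53 for Lcn2 (adjusted p = 0.836), now in the other direction, and -0.18 for Orm2 (adjusted p = 0.947). Crp did not overlap. HLKO had 277 ± 9.48 CPM where Alb had 425 ± 62.0 CPM, and the log2 fold change was -0.55 without that library (adjusted p = 0.107). At CT16 and 21%, 0 members were called by edgeR or DESeq2 in HLKO against Alb (0 with an unadjusted p under 0.05; 3.56% of all genes called). The same held in BLKO against Alb at CT16 and 21% (0 by edgeR and DESeq2, 2 with an unadjusted p under 0.05; 5.38%). These 2 were Orm1 (-1.10 ± 0.36, adjusted p = 0.0697) and Saa4 (-0.91 ± 0.37, adjusted p = 0.176), with every BLKO library below every Alb library. The 1 member called higher between genotypes was Fgb in BLKO at CT4 and 21% (0.63 ± 0.19, adjusted p = 0.0390; 7.44% of all genes called, 3.78% higher). Fgb stood at 11350.1 ± 1463 CPM there against 7320.5 ± 2479 CPM in Alb, the groups overlapped through Alb CT4 21% A, and without Alb CT4 21% B or C, or without BLKO CT4 21% A or B, the call was lost. Without Alb CT4 21% A the Fgb value was 0.93 (adjusted p = 0.00206). The median of the 10 members in BLKO against Alb was -0.83 at CT4 and 21% and -0.12 at CT16 and 21%. Over all genes it was 0.00547 and 0.000526.

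Kupffer cell and macrophage markers moved beside some of these values. Of the 11 such markers tested (12 listed), 8 were called higher with hypoxia in Alb at CT4, where 501 of all 9483 genes were. At CT4 and 6%, 6 were called lower in HLKO and 7 in BLKO against Alb, beside 1.83% and 2.82% of all genes. The markers summed to 389 to 721 CPM in Alb at CT4 and 6% and 198 to 366 at CT4 and 21%. At CT4 and 6% the sum was 265 to 319 CPM in HLKO and 218 to 267 in BLKO. In Alb at CT16 it was 210 to 491 CPM at 6% and 177 to 277 at 21%. The part of these markers in the results was not tested. Clec4f, which defines Kupffer cells, ran from 26.8 to 116 CPM over the 36 libraries, and Timd4, Vsig4 and Adgre1 were each at 0 in at least 1. The library with the highest Saa1 of its group had the highest sum of these markers in 6 of 12 groups and the lowest in 5. It was the lowest in both Alb groups at CT4 (389 CPM beside 584 and 721 at 6%), while in Alb at CT16 and 6% libraries B and C, high in Saa1, had 491 and 440.2 CPM and library A 210.3. Of 12 neutrophil markers 5 were in the table, S100a8, S100a9, Retnlg, Ngp and Csf3r, and summed to 0.228 to 14.5 CPM per library; each of the 5 was at 0 in at least 1 library. The 4 libraries with high acute phase values held 3.30 to 8.96 CPM. The library with the highest Saa1 of its group had the highest neutrophil sum in 7 of 12 groups and the lowest in 3. In Alb at CT4 and 21% library A had 6.00 CPM beside 0.914 and 2.13, and in Alb at CT16 and 6% libraries B and C had 8.96 and 8.00 and library A 1.63, but in Alb at CT4 and 6% library A had 3.30 beside 9.89 and 4.47. The highest sum, 14.5 CPM, was that of HLKO CT16 6% A, the library highest in Saa1 in its group (520 CPM). The part of these cells in the results was not tested. The 7 hepatocyte markers summed to 54988 to 98447 CPM. The other marker sums were 124 to 233 CPM for liver endothelium, 45.9 to 161 for stellate cells, 33.4 to 122 for cholangiocytes and 1.12 to 7.47 for lymphocytes, and the 1 red cell marker in the table, Alas2, ran from 48.9 to 316 CPM.

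Between times of exposure edgeR called only Fgb, in 2 of 60 tests of members, against 5.48% of the tests of all genes. From CT4 to CT16 at 21%, Fgb fell by 0.84 ± 0.19 in BLKO (adjusted p = 0.0159) and by 0.59 ± 0.19 in HLKO (adjusted p = 0.0433), in each the 1 member called, against 2.19% and 11.9% of all genes (1.34% and 5.29% lower). No library at CT16 reached any at CT4 in either genotype. Leaving out any 1 of the 6 libraries ended the HLKO call (adjusted p 0.0567 to 0.128), and the BLKO call was lost without BLKO CT4 21% A or B or CT16 21% A or C. In Alb at 21% the change of Fgb was -0.23 ± 0.19, and the difference of the time effect from that in Alb was called for 0 of 10 members in HLKO (0 with an unadjusted p under 0.05; 0.939% of all genes called) and in BLKO (2; 0.749%), and for 0 by DESeq2. In Alb, edgeR called 0 members between times at 21% (3 with an unadjusted p under 0.05, DESeq2 1, Lcn2; 1.27% of all genes) and 0 at 6% (1, DESeq2 1, Fgb; 4.41%). At 6% it called 0 in HLKO (2, DESeq2 0; 9.81%) and 0 in BLKO (2, DESeq2 0; 3.35%).

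Other positive acute phase genes did not move as one group. Of 25 tested, 3 rose and 1 fell with hypoxia in Alb at CT4, 3 and 1 in Alb at CT16, 3 and 2 in HLKO at CT4, 3 and 1 in HLKO at CT16, 1 and 5 in BLKO at CT4 and 0 and 1 in BLKO at CT16. Of all 9483 genes, 501 were called higher and 368 lower with hypoxia in Alb at CT4, and 637 and 641 in Alb at CT16. In HLKO the counts over all genes were 731 and 637 at CT4 and 512 and 412 at CT16. In BLKO they were 244 and 195 at CT4 and 452 and 439 at CT16. The median log2 fold change of the 25 was 0.13 in Alb at CT16 and -0.43 in BLKO at CT4, against 0.01 and 0.01 over all genes. Fga, the fibrinogen alpha chain, fell with hypoxia in 5 of the 6 comparisons (Alb CT16 -1.24 ± 0.24, HLKO CT4 -0.97 ± 0.24, HLKO CT16 -0.92 ± 0.25, BLKO CT4 -1.33 ± 0.24 and BLKO CT16 -0.86 ± 0.24), where Fgb was called in none. Saa3 rose in Alb at CT16 (3.26 ± 0.84, adjusted p = 0.00773). In BLKO at CT4 the metalloreductase Steap4 (-2.63 ± 0.38), the interleukin-1 receptor antagonist Il1rn (-3.63 ± 0.82) and Lrg1 (-1.49 ± 0.39) fell beside Saa1.

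Between genotypes, 7 of the 25 were higher and 0 lower in BLKO against Alb at CT4 and 21%, among them Fga (1.36 ± 0.24, adjusted p = 2.83e-04) and the iron hormone Hamp (1.11 ± 0.34), while at CT4 and 6% 0 were higher and 6 lower, among them Lrg1 (-1.28 ± 0.38) and Il18bp (-1.65 ± 0.35). The medians of the 25 were 0.35 at 21% and -0.45 at 6%, against 0.01 and -0.00409 over all genes. At CT16, 1 was higher and 1 lower at 21%, and 1 and 4 at 6%. Of all 9483 genes, 358 were called higher and 348 lower in BLKO at CT4 and 21%, and 207 and 267 at CT4 and 6%. At CT16 the counts over all genes were 203 and 307 at 21% and 370 and 526 at 6%. For HLKO against Alb the order is CT4 and 21%, CT16 and 21%, CT4 and 6%, and CT16 and 6%. In that order, 0, 0, 0 and 1 of the 25 were higher and 2, 1, 3 and 4 lower. Over all genes, 389, 195, 158 and 396 were higher and 532, 143, 174 and 541 lower. Serpina3m, a serine protease inhibitor, was lower in HLKO in all 4 (-2.12 ± 0.23, -1.55 ± 0.22, -1.78 ± 0.22 and -1.74 ± 0.22). Among 16 genes of negative acute phase proteins, which fall in the response, the albumin gene was lower in BLKO in all 4 comparisons (-0.62 ± 0.14, -0.79 ± 0.14, -0.73 ± 0.14 and -1.01 ± 0.14 in the same order), so that at 6% the RNA for albumin and 7 positive members at CT4 were lower together. With hypoxia in Alb at CT16, where Lcn2 and the orosomucoids rose, 0 of the 16 rose and 1 fell, the bile acid enzyme Cyp7a1 (-2.03 ± 0.55), and their median was -0.08.

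Genes upstream of the members changed with hypoxia in their own ways. Of 23 receptor and signalling genes of the interleukin-6, interleukin-1 and STAT3 pathways tested, 0 rose and 1 fell with hypoxia in Alb at CT16, and 1 rose and 4 fell in BLKO at CT4, with medians of -0.05 and -0.19. Of all 9483 genes, 637 rose and 641 fell in Alb at CT16, and 244 and 195 in BLKO at CT4. Socs3, the STAT3-induced feedback inhibitor, fell in Alb at CT4 (-1.84 ± 0.35) and CT16 (-1.22 ± 0.40) and in BLKO at CT4 (-1.85 ± 0.45). Nfkbia, the inhibitor of NF-κB and itself its target, rose in Alb (1.44 ± 0.21), HLKO (1.27 ± 0.21) and BLKO (1.25 ± 0.21) at CT4. The interleukin-1 receptor Il1r1, like Fgb, was higher in BLKO than in Alb at CT4 and 21% (1.60 ± 0.31, adjusted p = 8.50e-04), and lower in BLKO at CT16 than at CT4 (-1.66 ± 0.31). Il1r1 also fell with hypoxia at CT4 (-1.84 ± 0.32), and Stat3 was lower at CT16 than at CT4 in BLKO at 21% (-1.16 ± 0.23).

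Of 23 transcription factors of acute phase promoters, 3 rose and 4 fell with hypoxia in Alb at CT16, with a median of -0.11. Over all genes 6.72% rose and 6.76% fell there. Cebpd, an inducible C/EBP factor, rose in Alb (3.58 ± 0.64 at CT4 and 2.35 ± 0.63 at CT16), in HLKO at CT4 (5.01 ± 0.82) and in BLKO at CT16 (3.10 ± 0.62). The liver factors Foxa1 and Foxa2 fell in Alb (Foxa1 -3.57 ± 0.46 at CT4 and -2.73 ± 0.41 at CT16; Foxa2 -2.59 ± 0.33 and -2.92 ± 0.32). Cebpb was lower in BLKO than Alb at CT16 and 6% (-0.52 ± 0.13), where Orm1 was, and Cebpa at CT4 and 6% (-0.69 ± 0.15). Of 15 glucocorticoid targets, 9 rose and 0 fell with hypoxia in Alb at CT4, 9 and 1 in Alb at CT16, 11 and 0 in HLKO at CT4, 4 and 2 in HLKO at CT16, 5 and 1 in BLKO at CT4 and 8 and 1 in BLKO at CT16. In the same order, 501, 637, 731, 512, 244 and 452 of all 9483 genes rose, and 368, 641, 637, 412, 195 and 439 fell. The median of the 15 targets in Alb was 1.44 at CT4 and 1.75 at CT16, against 0.01 and 0.01 over all genes. The metallothioneins Mt1 and Mt2 rose in Alb at CT16 (4.54 ± 0.63 and 5.40 ± 0.75) and rose at CT4 too (3.28 ± 0.59 and 4.38 ± 0.71), where no member was called.

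Of 12 partners and receptors of the members tested, 1 rose and 1 fell with hypoxia in Alb at CT16, with a median of 0.15. Over all genes 6.72% rose and 6.76% fell there. Hmox1, which breaks down the heme that Hpx delivers, rose there (1.89 ± 0.53, adjusted p = 0.0141) and in HLKO at CT4 (2.54 ± 0.49), while Hpx was called in neither. Cd163, the macrophage receptor for haptoglobin bound to hemoglobin, was lower in BLKO than Alb at CT4 and 6% (-1.41 ± 0.40, adjusted p = 0.0317), the comparison in which Hp was lower and Kupffer markers were too. Fgg, the partner of Fgb, fell from CT4 to CT16 in BLKO at 21% (-0.80 ± 0.20, adjusted p = 0.0237), as did Fga (-0.89 ± 0.24), so that all 3 fibrinogen chains were lower at CT16 there.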

How the data were processed

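RNA-seq of mouse liver was analysed in 36 libraries. Per the submitters' processing notes, the authors' tools were cutadapt, STAR 2.4.2a, HTSeq and DESeq2 with the build mm10, and the deposited table holds raw counts per gene beside normalized values. Strand, read layout and molecular identifiers are not given in the sources used here. The authors' normalized columns (signal, 36 columns) were each a constant multiple of the deposited counts within a library and were not used. The 3 samples listed with both genes deleted were not analysed here.

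Counts were scaled by TMM and tested in 1 fit over 12 groups with edgeR 4.0.16 (limma 3.58.1, R 4.3.3), after filterByExpr with a count minimum of 10 left 9483 of 11873 genes. Benjamini-Hochberg adjustment ran over all tested genes within each of 29 comparisons, and the threshold was 0.05. CPM used TMM-scaled library sizes, and log2 CPM a prior count of 2. The fit was tested on simulated data. Totals of 1717589 to 5196957 counts limit the precision of low genes such as Lcn2 and Orm2. Named are all 10 members; from each list and comparison up to 4 called genes with the largest change among those whose groups do not overlap; and the 3 genes most like each member. The lists were positive and negative acute phase genes, cytokine signalling, transcription factors, partners, glucocorticoid targets and cell type markers. The members and lists were chosen with earlier results of these data known. S100a9 is named as the 1 tested neutrophil marker, and Stat3, Cebpa and Cebpb by the rule for their lists. Alternatives were DESeq2 1.42.0, its size factors in edgeR, no filter, fits restricted to the groups of a comparison, a block for the replicate letters, a robust fit and leaving out libraries. Gene positions and lengths are from GENCODE M21 (GRCm38), promoters from RefSeq (GRCm38.p6), read with Python 3.11.15, pandas 2.3.3 and Biopython 1.88, and figures were drawn with matplotlib 3.10.9.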

Additional observations from a re-analysis of the deposited data

Results flagged for a closer look

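The effect of hypoxia on Crp differed between times in HLKO liver, by -0.95 ± 0.27 on the log2 scale (CT16 minus CT4, edgeR's quasi-likelihood interaction test, adjusted p = 0.0276). At CT16 every library at 6% lay below every library at 21%, and at CT4 the groups overlapped. The 30 tests of time dependence over 10 members and 3 genotypes held no other call. That share is close to the 3.23% of all genes called over these comparisons, and in HLKO 8.64% of all genes were called. The call was kept in 6 of 12 fits that left out a library, and its cause was not tested.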

How the results depend on the processing

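The 29 calls became 30 with DESeq2's size factors (29 shared with the calls above), 31 without a filter (29), 37 with DESeq2 (27), 52 in fits on the compared groups only (21) and 31 with a replicate block (24). A robust fit gave 14 (14) and leaving out the 3 libraries that stood farthest apart gave 76 (26), and both were chosen after seeing the data. Leaving out the 3 libraries takes a high library from Alb at CT4 and 21% and the low one from Alb at CT16 and 6%, and leaves 2 libraries in each of 3 groups. Of the 29 calls, 10 were kept in all 7 of these settings and 28 were lost in at least 1 fit without a single library.

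Counts of members called that moved were as follows. With the fit on compared groups they were 2 for BLKO against Alb at CT16 and 21%, 0 at CT4 and 21%, 1 for HLKO against Alb at CT16 and 6% and 1 at CT4 and 21%. For hypoxia they were 7 in BLKO at CT4, 0 in HLKO at CT16 and 5 in HLKO at CT4, and for time 3 in BLKO at 21%, 1 in BLKO at 6%, 5 in HLKO at 21% and 2 in HLKO at 6%. The time dependence of hypoxia gave 2 in BLKO and 4 in HLKO. With DESeq2 they were 4 for BLKO against Alb at CT16 and 6%, 3 for hypoxia in BLKO at CT4, and 1 for time in Alb at 21% and at 6%. With the replicate block they were 6 for BLKO against Alb at CT16 and 6%, 1 for HLKO against Alb at CT4 and 21% and 2 for hypoxia in BLKO at CT4. The letters pair nothing by the labels, and in 0 of 20 comparisons did all same-letter deviations correlate above 0.1. The robust fit gave 3 for BLKO against Alb at CT4 and 6%, 1 for HLKO against Alb at CT16 and 6%, 1 at CT4 and 21%, 0 at CT4 and 6%, 2 for hypoxia in Alb at CT16 and 0 in BLKO at CT4.

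Without the 3 libraries the counts were 1, 8 and 2 for BLKO against Alb at CT16 and 21%, CT16 and 6% and CT4 and 21%, and 7, 0 and 7 for HLKO against Alb at CT16 and 6%, CT4 and 21% and CT4 and 6%. For hypoxia they were 8 in Alb at CT16, 8 in Alb at CT4, 6 in BLKO at CT4 and 1 in HLKO at CT4, and for time 2 in BLKO at 21% and 1 in HLKO at 6%. Differences between effects gave 6 (hypoxia on BLKO, CT4), 2 and 3 (hypoxia on HLKO, CT16 and CT4) and 3 (time dependence in BLKO). Lcn2 turned in direction: 3.23 for BLKO against Alb at CT4 and 21% (adjusted p = 0.0151), 0.53 for HLKO against Alb there, and 3.99 for hypoxia in Alb at CT4 (adjusted p = 0.00282). Leaving out 1 library at a time gave -4.11 to 0.53 and -1.93 to 4.00 for the latter 2, the upper ends without Alb CT4 21% A. The cause was not tested, beyond that library's own Lcn2 of 501 CPM beside 5.48 and 14.9.

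Leaving out each library in turn gave 1 to 7 members for BLKO against Alb at CT16 and 6%, 0 to 1 at CT4 and 21% and 0 to 7 at CT4 and 6%. It gave 0 to 6 for HLKO against Alb at CT16 and 6%, 0 to 3 at CT4 and 21% and 0 to 4 at CT4 and 6%. For hypoxia it gave 1 to 8 in Alb at CT16, 0 to 4 in Alb at CT4, 0 to 2 in BLKO at CT4 and 0 to 1 in HLKO at CT16. For time it gave 0 to 1 in Alb at 21% and at 6%, BLKO at 21% and HLKO at 6%, and 0 to 0 in HLKO at 21%. The dependence of hypoxia on BLKO at CT4 gave 0 to 4, and its time dependence in HLKO 0 to 1. Of 1401 refitted values, of the members and comparisons called in at least 1 setting, 1108 kept direction and side of the threshold, 137 lost it, 126 gained it, 25 moved and 5 reversed.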
